A study of Mus musculus with 6 samples.

Results

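The 7 genes described here are the caudal-type homeobox genes Cdx1 and Cdx2, the Hnf4 nuclear receptor genes Hnf4a and Hnf4g, and the endodermal GATA factor genes Gata4, Gata5 and Gata6. They were chosen by gene symbol as transcriptional regulators of the intestinal epithelium, among 13840 genes that the arrays name with a symbol. Of the 7, 6 had 1 probe each. Hnf4a was named by no probe and was not analysed here. Transcripts were measured in the distal part of the midgut of mouse embryos at E13.5, in 3 Id2-/- samples and 3 Id2+/+ samples from littermates, with 1 single-color array per sample. The Id2-/- embryos lack Id2 in every tissue, and the Id2+/+ embryos carry both normal copies. The strain of each sample is not given, and the study kept its mice on an inbred background or on a cross of it with NMRI. Whether a sample was 1 embryo or a pool is not stated, and the p-values cover only the variation among these samples, which may be technical. The whole segment was used, with its epithelium, mesenchyme, muscle and nerve cells together, so fewer cells of a type and less RNA per cell cannot be told apart. No probe is named Id2, and the targeted gene was not analysed here.

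Cdx1 and Cdx2 encode homeodomain proteins that give the gut endoderm its intestinal identity, and mouse endoderm without Cdx2 takes on features of stomach or esophagus. Hnf4a and Hnf4g act as receptors on the enhancers of absorptive cells and share many targets with Cdx2. Gata4 is active in the proximal intestine, stomach and heart, Gata6 along the whole intestine, and Gata5 in endoderm, heart and mesothelium. Id2 is a helix-loop-helix protein without a DNA-binding domain, which holds back basic helix-loop-helix factors from the E-box, the sequence that these factors bind.

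The promoters of Cdx2 and Gata5 are shown because E-boxes are the sites whose use Id2 limits, and because these are the tested members with an entry in the RefSeq promoter table (build GRCm38.p6), which holds 3 of the 7 genes. Each run is the 250 bases before the start of the gene, read 5′ to 3′ on the gene's strand, with each match to CANNTG (an E-box) in capitals.
Cdx2, chr5:147307250-147307499, minus strand: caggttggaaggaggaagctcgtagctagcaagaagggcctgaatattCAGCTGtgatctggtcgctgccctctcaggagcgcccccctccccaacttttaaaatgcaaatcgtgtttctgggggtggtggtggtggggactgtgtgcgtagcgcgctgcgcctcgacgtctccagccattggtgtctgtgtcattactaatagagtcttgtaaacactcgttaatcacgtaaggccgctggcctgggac
Gata5, chr2:180334680-180334929, minus strand: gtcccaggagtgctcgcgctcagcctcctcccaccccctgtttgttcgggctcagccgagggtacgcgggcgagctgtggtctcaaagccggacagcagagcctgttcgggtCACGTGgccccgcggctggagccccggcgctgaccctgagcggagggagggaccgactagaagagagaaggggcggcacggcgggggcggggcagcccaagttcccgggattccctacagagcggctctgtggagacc
Both runs held 1 E-box. That of Cdx2, CAGCTG, began 202 bases before the start, and that of Gata5, CACGTG, 138 bases before it. A match to CANNTG, which reads the same on both strands, was found in 66.2% of all 32851 promoters of this length, so an E-box here is common. The letters GATAA, the core of GATA sites, TTTAT, a core bound by Cdx proteins, and CAAAGTCCA, an Hnf4 site, were searched on both strands and were in neither run. They were found in 22.6%, 37.3% and 0.384% of all promoters. The array data hold no measure of binding at these sites.

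Levels are given as the authors' median-normalized signal, in which 1 is the median signal of an array, or as its log2. A probe was called above background on an array when its signal-to-noise score was at least 3, and it was tested when this held on all 3 arrays of a genotype. This left 12741 probes for 7322 named genes, among them Cdx2, Gata5 and Gata6. A probe that passed through 1 genotype alone is dim in the other by selection. Between 42.08% and 50.11% of probes were above background per array. The arrays numbered 1 stood apart in both genotypes: Pearson's r across tested probes was 0.984 between both, 0.909 to 0.931 between one of them and any of the remaining 4 arrays, and 0.979 to 0.988 within those 4. What the arrays numbered 1 have in common is not stated. Values without them are therefore given beside the differences of the tested members and the list medians.

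Cdx2 was above background on all 6 arrays. Its signal was 67.4, 71.5 and 62.6 on the Id2-/- arrays numbered 1, 2 and 3, against 46.8, 111.5 and 132.6 on the Id2+/+ arrays. The Id2-/- arrays lay close together, and the Id2+/+ array numbered 1 was the lowest of all 6, so the genotypes overlapped. The mean log2 signal was 6.07 ± 0.095 in Id2-/- midgut and 6.47 ± 0.81 in Id2+/+ midgut (SD, n = 3 each). The log2 difference was -0.40 (SE 0.41, 95% interval -1.36 to 0.56), with an adjusted p = 1.0 from limma. When arrays of the same number were blocked together, the interval was -0.94 to 0.14 and the adjusted p = 1.0. In the fit with this block every probe shared 1 SE of 0.275. Its p-values, here and below, thus follow the size of a difference and do not measure the spread of the gene itself. In the fit without the block, 0 of 12741 probes passed the adjusted threshold of 0.05 (0.0%), with 234 at an unadjusted p under 0.05 (1.84%) and 242 by the methods' t-test. These data thus allow a level of Cdx2 in Id2-/- midgut that is lower or higher than in Id2+/+ midgut.

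The 3 pairs of same-numbered arrays did not point the same way for Cdx2. Id2-/- minus Id2+/+ was positive in the pair numbered 1 and negative in the other two. This order of signs was found in 5111 of the 12741 tested probes (40.1%). Without both arrays numbered 1, the log2 difference of Cdx2 was -0.86 (SE 0.17, interval -1.29 to -0.43), and the adjusted p was 0.168. In that fit 0 of 13316 probes passed (0.0%), with 1714 at an unadjusted p under 0.05 (12.9%). Leaving out only the Id2+/+ array numbered 1 also gave -0.86 (adjusted p = 0.431). Leaving out the Id2+/+ array numbered 2 gave -0.23, and leaving out the one numbered 3 gave -0.11 (adjusted p = 1.0 for both). Each Id2+/+ array alone thus changed the size of the difference by more than 1.5 times, in either direction, and changed neither its sign nor the call.

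**Figure D1:**
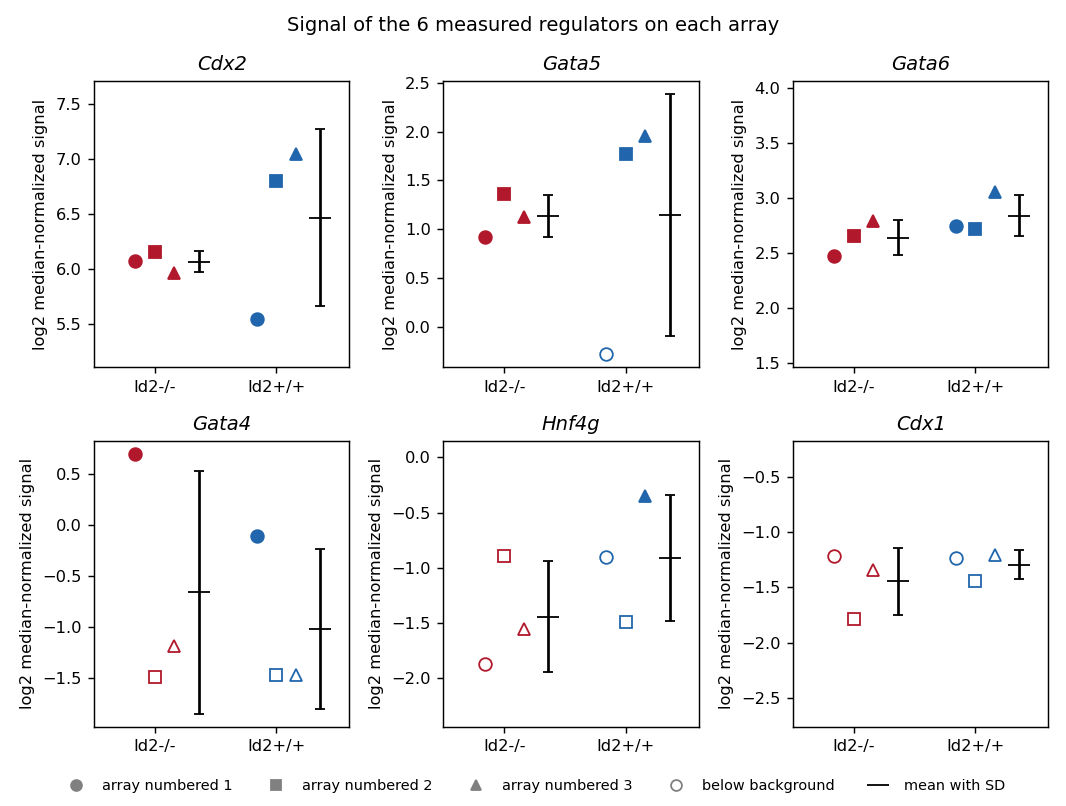
Log2 median-normalized signal (vertical axes, each panel on its own range) of the 6 measured genes on the 3 Id2-/- arrays (left, red) and the 3 Id2+/+ arrays (right, blue). Circles, squares and triangles are the arrays numbered 1, 2 and 3, open symbols are below background, and black bars are the mean with the SD; the Id2+/+ array numbered 1 is the lowest point for Cdx2 and Gata5, and the genotypes overlap in every panel.

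Cdx1, which acts beside Cdx2 in the intestinal epithelium, was above background on none of the 6 arrays. Its signal was 0.432, 0.290 and 0.396 on the Id2-/- arrays and 0.426, 0.367 and 0.435 on the Id2+/+ arrays, all under the median of an array. The values overlapped and give no level of Cdx1 to compare. Cdx4, the remaining gene of the family, was also below background on all 6 arrays.

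The levels of Cdx2 across arrays followed those of the epithelial markers. Of 30 pan-epithelial markers, such as the adhesion genes Epcam and Cdh1, 23 had a named probe and 21 were tested, all above background on all 6 arrays. Their mean log2 signal was 4.52, 4.70 and 4.75 on the Id2-/- arrays, against 4.14, 5.25 and 5.55 on the Id2+/+ arrays. The summed signal of the 23 named markers was 925.8 to 1075.4 in Id2-/- midgut and 708.1 to 1843.0 in Id2+/+ midgut. As for Cdx2, the Id2+/+ array numbered 1 was the lowest and those numbered 2 and 3 were the highest. The root-mean-square distance between the centered log2 values of Cdx2 and this mean profile was 0.114 over 6 arrays, against a median of 0.488 over all genes. Only 18 of 7322 genes (0.246%) lay closer. Of these 18, 2 were markers of the list, and 19 of the 21 markers lay farther away. Sema4a, H2-K1 and Ap1g2, described below, were among the 18 and are not on the list. Nearness to this profile thus does not single out the markers. The ranking is a description, since all values share the same 6 arrays.

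After the mean of the 21 markers was subtracted on each array, Cdx2 was 1.55, 1.46 and 1.22 on the Id2-/- arrays and 1.40, 1.55 and 1.50 on the Id2+/+ arrays. The range over all 6 arrays was then 0.33 on the log2 scale, against 1.50 before. The log2 difference centered in this way was -0.07 (SE 0.27, interval -0.72 to 0.57; adjusted p = 0.869 from limma). Centering on these markers was chosen after the values had been seen, and it moved the median of all tested probes to 0.37, against 0.04 before. Among the 21 are Cdh17 and Vil1, known as targets of Cdx2, so the subtracted mean is not independent of Cdx2. Krt7 and Krt19 among them are also mesothelium markers. The log2 differences of the markers themselves had a median of -0.31, and 20 of the 21 were negative. This median was -0.72 without both arrays numbered 1, -0.64 without the Id2+/+ array numbered 1, -0.13 without the one numbered 2 and 0.00 without the one numbered 3; without the Id2-/- array numbered 1 it was -0.20. Of the 21, 0 passed the adjusted test without the block. With the block, 1 was lower, where 143 of all tested probes were lower (1.12%). It was Lad1, an anchoring filament protein of epithelia (adjusted p = 0.0339), named here after its value was seen, and with quantile normalization added it did not pass (adjusted p = 0.576). The part of the epithelial markers in the level of Cdx2 was not tested beyond this centering.

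The mesenchyme markers had a smaller spread over the arrays. The mean log2 signal of the 14 tested of 18 was 7.20, 7.51 and 7.34 on the Id2-/- arrays and 6.82, 7.60 and 7.61 on the Id2+/+ arrays, with a median difference of 0.01. The distance of Cdx2 from their mean profile was 0.303, and 42.0% of genes lay closer. Both marker lists were thus lowest on the Id2+/+ array numbered 1.

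**Figure D2:**
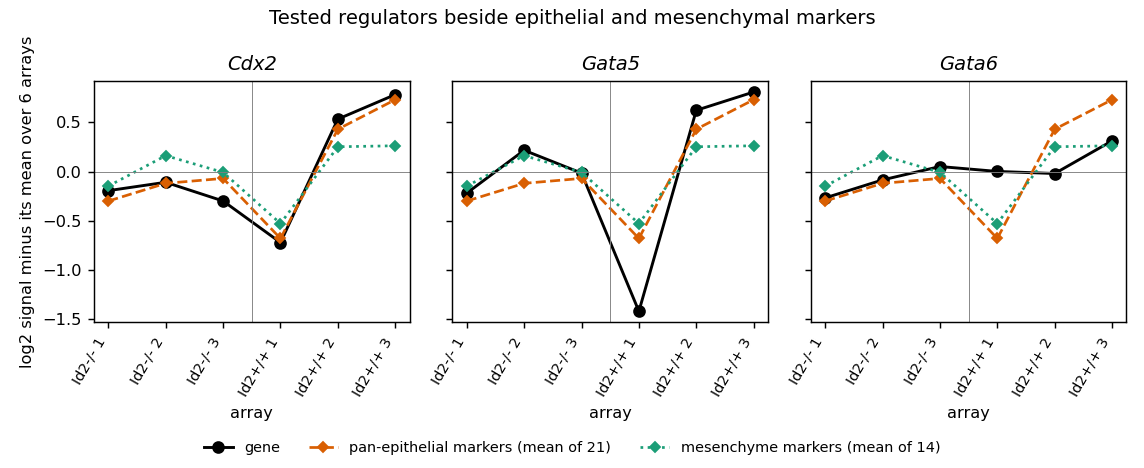
Log2 signal minus its own mean over the 6 arrays (vertical axis) for Cdx2, Gata5 and Gata6 (black circles), with the mean of 21 pan-epithelial markers (orange, dashed) and of 14 mesenchyme markers (green, dotted) on each array (horizontal axis, Id2-/- left of the line). The Cdx2 points lie near the pan-epithelial ones on every array, Gata5 lies below both marker lists on the Id2+/+ array numbered 1, and Gata6 is nearly flat.

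The 3 tested genes whose pattern over the arrays was most like that of Cdx2 were Sema4a, a semaphorin, at a distance of 0.077, H2-K1, a class I histocompatibility gene, at 0.093, and Ap1g2, an adaptor subunit of vesicle coats, at 0.099. The median over the 7319 genes compared was 0.519. Sema4a, for instance, had log2 signals of 1.11, 1.21 and 1.14 in Id2-/- midgut and 0.70, 1.76 and 2.06 in Id2+/+ midgut. The dip on the Id2+/+ array numbered 1 and the high values on those numbered 2 and 3 recur in it.

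The second Hnf4 gene on the array, Hnf4g, was above background on a single array, the Id2+/+ array numbered 3, with a signal-to-noise score of 3.64. Its signal was 0.271, 0.538 and 0.338 on the Id2-/- arrays and 0.535, 0.354 and 0.784 on the Id2+/+ arrays. The genotypes overlapped, and Hnf4g was not tested.

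Gata6 was above background on all 6 arrays. Its signal was 5.55, 6.30 and 6.92 on the Id2-/- arrays, against 6.69, 6.59 and 8.30 on the Id2+/+ arrays. The lowest 2 arrays were Id2-/- and the highest was Id2+/+, but the Id2-/- array numbered 3 lay above 2 of the Id2+/+ arrays. The mean log2 signal was 2.64 ± 0.16 in Id2-/- midgut and 2.84 ± 0.19 in Id2+/+ midgut (SD, n = 3 each). The log2 difference was -0.20 (SE 0.24, interval -0.76 to 0.36; adjusted p = 1.0 from limma, also with the block). The interval leaves out a fall or a rise beyond its bounds, and a smaller one was not detectable with 3 arrays per genotype.

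Gata6 was lower in Id2-/- midgut in each pair of same-numbered arrays, by log2 differences of -0.27, -0.07 and -0.26. Among all tested probes 719 (5.64%) were lower in all 3 pairs and 1503 (11.8%) were higher. Between the arrays numbered 1 and the other 4, the means of Gata6 differed by -0.20 on the log2 scale and those of Cdx2 by -0.69. Without both arrays numbered 1, Gata6 differed between genotypes by -0.16 (adjusted p = 0.701). It differed by -0.12 without the Id2-/- array numbered 1 and by -0.09 without the Id2+/+ array numbered 3 (adjusted p = 1.0 for both). Its sign depended on the scaling, since centering on the pan-epithelial markers gave 0.13 (adjusted p = 0.848). Of all genes, 33.1% lay closer than Gata6 to the pan-epithelial profile and 36.4% closer to the mesenchyme profile. The most similar genes were Scg5 at a distance of 0.066, Jph4 at 0.068 and Ddx55 at 0.072, against a median of 0.383.

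Gata5 was above background on 5 of the 6 arrays. Its signal was 1.90, 2.57 and 2.19 on the Id2-/- arrays, against 0.826, 3.40 and 3.87 on the Id2+/+ arrays, where the first of these was below background (signal-to-noise score 2.94). The Id2+/+ arrays thus held both the lowest and the highest values. The mean log2 signal was 1.14 ± 0.22 in Id2-/- midgut and 1.15 ± 1.24 in Id2+/+ midgut (SD, n = 3 each). The log2 difference was -0.01 (SE 0.58, interval -1.37 to 1.35; adjusted p = 1.0 from limma, also with the block). Since the interval reaches past a doubling on both sides, these arrays say little about the level of Gata5.

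The near-zero difference of Gata5 was made of opposite pairs, 1.20 in the pair numbered 1 and -0.41 and -0.82 in the other two. Without both arrays numbered 1 it was -0.62 (interval -1.04 to -0.19, adjusted p = 0.247), and without the Id2+/+ array numbered 1 alone it was -0.72 (adjusted p = 0.592). Its sign turned under other choices too, with 0.32 after centering on the pan-epithelial markers (adjusted p = 0.804), 0.39 without the Id2+/+ array numbered 3, 0.30 without the one numbered 2 and 0.10 without the Id2-/- array numbered 1. The mean of Gata5 on the arrays numbered 1 was lower than on the other 4 by a log2 difference of -1.23, and 4.65% of tested probes had a more negative one. Its most similar genes were the collagen gene Col14a1 at a distance of 0.067, the mast cell protease gene Cpa3 at 0.132 and the lysosomal protease gene Ctsc at 0.152, against a median of 0.698.

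**Figure D3:**
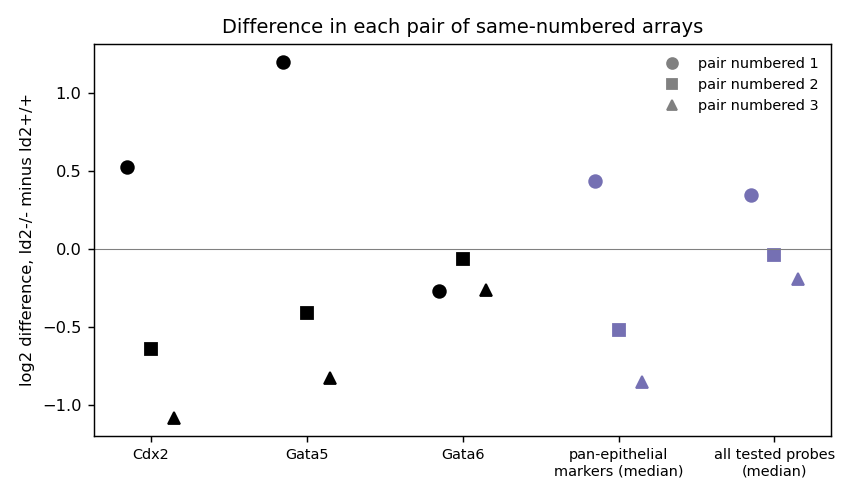
Log2 difference, Id2-/- minus Id2+/+ (vertical axis), in the pairs of arrays numbered 1 (circles), 2 (squares) and 3 (triangles) for Cdx2, Gata5 and Gata6, with the median of 21 pan-epithelial markers and of all 12741 tested probes (purple). Pair 1 is above 0 and pairs 2 and 3 are below 0 for Cdx2, Gata5 and the marker median, while Gata6 is below 0 in all 3 pairs.

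The pairs differed in the same order for the epithelial markers and, by less, for all probes. The median of the 21 pan-epithelial markers was 0.44, -0.52 and -0.85 in the pairs numbered 1, 2 and 3. The median over all tested probes was 0.35, -0.04 and -0.19. The pairs of Cdx2 and Gata5 thus had the signs of these medians.

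Gata4 was above background on both arrays numbered 1 and on none of the other 4, so it was not tested. Its signal was 1.63, 0.354 and 0.438 on the Id2-/- arrays, with signal-to-noise scores of 5.10, 0.02 and -0.08, against 0.926, 0.360 and 0.361 on the Id2+/+ arrays, with scores of 3.09, -2.13 and -0.46. The array number and not the genotype separated the arrays with signal from those without. The mean log2 signal of the arrays numbered 1 exceeded that of the other 4 by 1.70, and 4.14% of the 32189 unflagged probes had a larger excess. The same detection pattern was found in 796 of these probes (2.47%). Among partner factors it was shared by Foxa1, a forkhead factor of foregut and intestine, at log2 2.11, 0.33 and 0.41 on the Id2-/- arrays and 1.78, -0.82 and 0.30 on the Id2+/+ arrays. Sox9, a progenitor factor of the gut epithelium, was above background on both arrays numbered 1 and on the Id2+/+ array numbered 3. Both were named after their values were seen. The mean log2 signals of the 5 tested of 10 mesothelium markers, all above background on all 6 arrays, were 4.96, 4.79 and 4.67 on the Id2-/- arrays and 5.44, 4.70 and 4.51 on the Id2+/+ arrays. The markers did not share 1 pattern: Upk3b was highest on the array numbered 1 in both genotypes, while Wt1 was highest there in Id2+/+ midgut and lowest there in Id2-/- midgut. The mean of the 6 tested of 12 enteric neural crest markers was also higher on the arrays numbered 1, at 6.0, 5.42 and 5.36 on the Id2-/- arrays and 5.71, 5.42 and 5.45 on the Id2+/+ arrays. These markers were split as well. Ret, Ednrb and Uchl1 were highest on the array numbered 1 in both genotypes, and Tubb3 only in Id2-/- midgut. Elavl4 and Stmn2 were lowest there in both. These genes were named after their values were seen. The summed signal of the mesothelium list was 136.1 to 188.2 in Id2-/- midgut and 152.1 to 276.5 in Id2+/+ midgut, and the part of either kind of cell in the level of Gata4 was not tested.

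Among 32 partner factors of the same network, 25 had a named probe and 12 were tested. Of these, 0 passed limma without the block in either direction, where the share of all probes was 0.0%. With the block, 1 was higher and 2 were lower in Id2-/- midgut, when 135 of all tested probes were higher (1.06%) and 143 were lower (1.12%), or 2.18% in all. With the block and quantile normalization, 0 passed, as for all probes (0.0%; 944 at an unadjusted p under 0.05). The median log2 difference of the 12 was -0.12, beside 0.04 for all tested probes. It was -0.48 without both arrays numbered 1. When single arrays were left out it lay between -0.31, without the Id2+/+ array numbered 1, and 0.03, without the one numbered 3, with -0.02 to -0.04 without the Id2+/+ array numbered 2 or the Id2-/- array numbered 2 or 3.

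Foxa2, a forkhead factor that opens chromatin in endoderm, was above background on the 3 Id2-/- arrays and on no Id2+/+ array. Its log2 signal was 1.18, 1.64 and 1.62 on the Id2-/- arrays and -0.56, -0.17 and -1.10 on the Id2+/+ arrays. The genotypes did not overlap, which held for 348 tested probes with higher Id2-/- values (2.73%) and for 4.02% in either direction. The log2 difference of Foxa2 was 2.09 (SE 0.31 without the block). This is a ratio of 4.26, taken to Id2+/+ values that were all below background, and it is not a lower bound. The adjusted p was 0.598 without the block, 2.59e-11 with it and 0.363 with the block and quantile normalization. Foxa2 is also active in stomach and pancreas, whose markers were mostly dim on these arrays. The summed signal of 13 named stomach epithelium markers, of which 3 were tested, was 24.3 to 27.2 in Id2-/- midgut and 16.5 to 20.7 in Id2+/+ midgut. That of 11 named pancreas markers, of which 4 were tested, was 11.7 to 20.1 in Id2-/- midgut and 6.5 to 27.2 in Id2+/+ midgut, where Cpa1 on the Id2+/+ array numbered 1 was high (log2 4.02). The fit with the block, which called Foxa2, also called 2 of the 3 stomach markers higher (Irx3 and Irx5) and 3 of the 4 pancreas markers higher (Clps, Pnliprp1 and Pnliprp2), with median differences of 1.73 and 0.99 for the stomach and pancreas lists. With quantile normalization added, 0 of either list passed. Of the called pancreas markers, Clps did not overlap between genotypes, while Pnliprp1 and Pnliprp2 did. Pnliprp1 had its highest log2 signal of all 6 arrays, 2.17, on the Id2+/+ array numbered 1, against 1.29, 2.11 and 0.42 in Id2-/- midgut. Pnliprp2 was slightly lower on the Id2-/- array numbered 2 than on its Id2+/+ counterpart, at 0.81 against 0.91. The called stomach and pancreas markers, like Foxa2, were tested through the Id2-/- arrays alone. Each was thus below background on at least 1 Id2+/+ array by selection, which also shapes both medians. Untested stomach markers went both ways, such as Sox21 at 1.32 and Tff2 at -1.46. These genes were named after their values were seen, and the part of stomach or pancreas cells in the level of Foxa2 was not tested. Nr1h4, the bile acid receptor of the ileum, had -0.78, 0.82 and 0.36 in Id2-/- midgut and 0.61, 1.46 and 2.22 in Id2+/+ midgut. Its difference was -1.30 (SE 0.54; adjusted p = 1.0 without the block, 0.000288 with it and 0.47 with quantile normalization added). Foxa3, a relative of Foxa2, had 1.13, -0.36 and 0.39 in Id2-/- midgut and 0.91, 1.29 and 1.77 in Id2+/+ midgut. Its adjusted p was 1.0 without the block, 0.0339 with it and 0.696 with quantile normalization added. Foxa3 was tested through the Id2+/+ arrays alone, so it was below background on at least 1 Id2-/- array by selection. Nr5a2, a nuclear receptor of gut and liver, had a difference of -0.86 (adjusted p = 1.0 without the block and 0.0672 with it).

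Of 25 genes known as targets of Cdx2, 15 had a named probe and 9 were tested. Their median log2 difference was -0.57, with 7 of 9 negative, beside 0.04 for all tested probes and -0.31 for the pan-epithelial markers, which share Cdh17 and Vil1 with them. The median rested on single arrays, with -1.33 without the Id2+/+ array numbered 1, -0.32 without the one numbered 2, -0.01 without the one numbered 3 and -0.18 without the Id2-/- array numbered 1. Without both arrays numbered 1 it was -0.87. In the pairs numbered 1, 2 and 3 the median was 0.46, -0.92 and -0.96, the same order of signs as Cdx2 itself. That order is not particular to these targets. The medians of the partner factors, the other target lists, the mesenchyme markers and all tested probes had it too. Of the 9, 0 passed without the block, and with it 0 were higher and 2 were lower, Muc13 and Cldn2. After centering on the pan-epithelial markers the median was -0.25.

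Muc13, a membrane mucin, had log2 signals of 0.12, 1.51 and 2.21 in Id2-/- midgut and 1.59, 3.94 and 4.40 in Id2+/+ midgut. It was lower in Id2-/- midgut in all 3 pairs, although the genotypes overlapped across numbers. Its difference was -2.03 (adjusted p = 1.0 without the block, 1.04e-10 with it and 0.275 with quantile normalization added). Cldn2, a claudin that forms pores between epithelial cells, had 1.15, 2.02 and 2.27 in Id2-/- midgut and 1.54, 3.48 and 3.87 in Id2+/+ midgut. Its difference was -1.15 (SE 0.63; adjusted p = 1.0 without the block, 0.00255 with it and 0.457 with quantile normalization added). Cdh17, the liver-intestine cadherin and a direct target of Cdx2, had 3.75, 3.94 and 4.36 in Id2-/- midgut and 3.73, 4.72 and 5.32 in Id2+/+ midgut. Its difference of -0.57 did not pass (adjusted p = 1.0 without the block and 0.605 with it). Fabp2, the intestinal fatty acid binding protein, is on all 3 target lists and differed by -0.69 (adjusted p = 1.0 without the block and 0.274 with it).

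Of 34 genes known as targets of Hnf4a, 23 had a named probe and 11 were tested. Their median log2 difference was -0.42, and 10 of 11 were negative. For the pan-epithelial markers, which share Epcam with them, it was -0.31, and 20 of 21 were negative. Apoc2 and Apoa4, the latter named after its values were seen, were tested through the Id2+/+ arrays alone. Both were thus below background on at least 1 Id2-/- array by selection, which favors a negative sign. Where all 6 arrays had to be above background, the median of the targets was -0.28. It was -0.68 without the Id2+/+ array numbered 1 and -0.78 without both arrays numbered 1. Of the 11, 0 passed without the block, and with it 1 was higher, Anpep, and 1 was lower, Fabp1. With quantile normalization added, 0 passed. After centering on the pan-epithelial markers the median was -0.09.

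Fabp1, the liver-type fatty acid binding protein of enterocytes, had log2 signals of 1.43, 1.79 and 2.14 in Id2-/- midgut and 2.51, 3.56 and 4.13 in Id2+/+ midgut. The genotypes did not overlap, which held for 164 tested probes with lower Id2-/- values (1.29%). Its difference was -1.61 (SE 0.44; adjusted p = 1.0 without the block, 1.29e-06 with it and 0.242 with quantile normalization added). Anpep, aminopeptidase N of the brush border, was higher in Id2-/- midgut in each pair, with 4.30, 5.88 and 6.04 in Id2-/- midgut and 1.88, 4.72 and 5.25 in Id2+/+ midgut. Its difference was 1.46 (adjusted p = 1.0 without the block, 2.22e-05 with it and 0.453 with quantile normalization added). The apolipoprotein genes Apoa1 and Apoc2 had differences of -0.49 and -0.69, and neither passed in any of these fits. Foxa2, Irx3, Irx5, Muc13 and Fabp1 belong to a set that the study picked on these same samples, so their direction is not independent evidence.

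Of 23 genes known as targets of Gata4 or Gata6, 16 had a named probe and 6 were tested, with a median log2 difference of -0.13. It was -0.37 without both arrays numbered 1, and -0.32 to -0.02 when single arrays were left out, lowest without the Id2+/+ array numbered 1 and nearest to 0 without the Id2-/- array numbered 2, with -0.19 without the Id2-/- array numbered 1 and -0.08 and -0.05 without the Id2+/+ arrays numbered 2 and 3. Of the 6, 0 passed without the block, and with it 0 were higher and 1 was lower, again Fabp1. Sox17, an endoderm factor, and Nkx2-5, a factor of heart and pyloric mesenchyme, differed by -0.15 and -0.11 (adjusted p = 1.0 for both with and without the block).

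**Figure D4:**
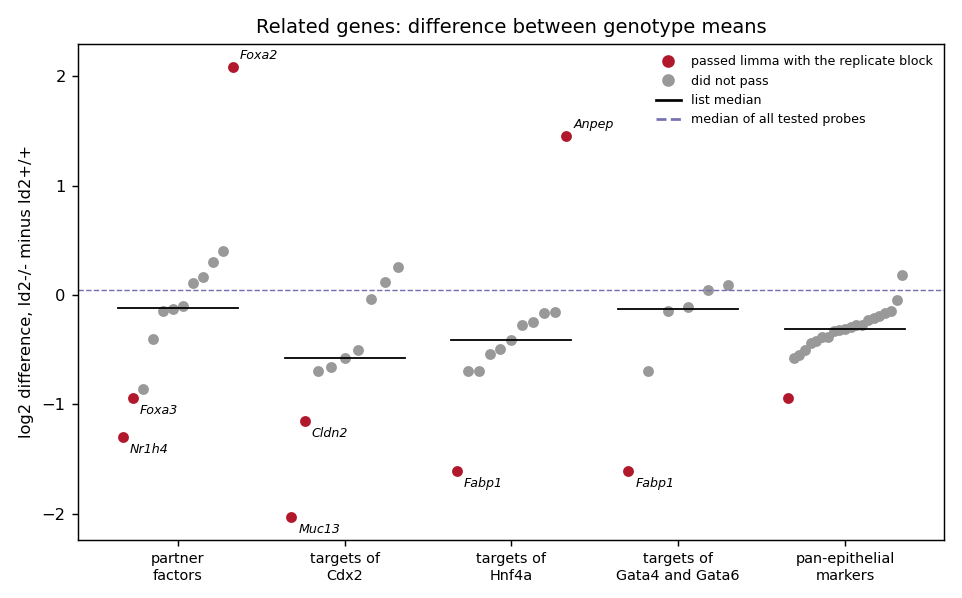
Log2 difference between genotype means, Id2-/- minus Id2+/+ (vertical axis), for every tested gene of the partner factors, the 3 target lists and the pan-epithelial markers (horizontal axis). Red points passed limma with the replicate block, gray points did not, black lines are list medians and the dashed line is the median of all tested probes (0.04); all 5 list medians lie below it, from -0.12 to -0.57.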

How the data were processed

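RNA of 3 Id2-/- and 3 Id2+/+ distal midguts was amplified by 1 round of in vitro transcription and hybridized to Applied Biosystems mouse genome survey arrays of 33012 probes. The authors deposited, per probe, a signal intensity, a signal-to-noise score, a quality flag and a normalized intensity. They divided each array by a constant, which was checked to be the median over unflagged spots (708 to 1010.4); the series-wide table is identical (largest difference 0). The scanner software, its version and any background subtraction are not given in the sources used here. In the study, the methods leave out flags under 5000; here a flag of 5000 or more was taken as bad, which left 32189 probes on all 6 arrays.

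Log2 of the normalized intensity was tested with limma 3.58.1 (lmFit and eBayes, R 4.3.3) with Benjamini-Hochberg adjustment at 0.05 over all 12741 tested probes. The number of arrays limits the precision. Arrays that carry the same number in their titles deviated together from the genotype means (r = 0.838, 0.644 and 0.579), and the numbers were therefore taken to pair them, and a fit with the number as a block stands beside the fit without it. Differently numbered arrays 2 and 3 also correlated, at 0.549 and 0.638, so the block mostly separates number 1 from the rest. The labels call the embryos littermates and say no more of the numbers. With the block, every probe shared a single SE of 0.275, so a small p-value there reflects a large difference and not a small spread of that probe. Names come from the platform annotation, updated through RefSeq (14411 probes with 1 symbol, 247 with several and 18354 with none). Where a list gene had several tested probes, the one with the highest mean was used. The genes named are all members, the 4 genes of each list with the smallest p and the 3 genes nearest to each tested member; others are marked in the text. The members and lists were chosen with earlier results of these data known. The fits were tested on simulated data. Alternatives were quantile and 75th percentile scaling, other limits on dim probes, the series-wide table, an offset of 0.5, the methods' t-test, the replicate block, a robust trended prior, leaving out arrays and, added after the values were seen, centering on epithelial markers. Figures were drawn with matplotlib 3.10.9.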

Additional observations from a re-analysis of the deposited data

How the results depend on the processing

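The counts of probes past the adjusted threshold, 0 higher and 0 lower in Id2-/- midgut, became 135 higher and 143 lower with the replicate block, and 264 higher and 51 lower with the block and centering on the pan-epithelial markers, which was added after the values were seen. They stayed at 0 under the other 17 alternatives, the block with quantile normalization and the leave-one-out fits included. The cause was not tested. Cdx2 kept its direction and its side of the threshold in 19 of 19 alternatives, between -0.86 and -0.07. Some of these could not move its difference. The series-wide table is identical, and the block, the robust trended prior and the methods' t-test leave the estimate at -0.40. Where 0 probes passed, the call of Cdx2 was that of every probe. Gata5 changed sign when single arrays were left out (-0.72 to 0.39) and with that centering (0.32, with and without the block). Gata6 did so with that centering (0.13, with and without the block) and stayed between -0.28 and -0.09 when single arrays were left out. The block changed the call of no member. For the untested members the difference of normalized log2 values when single arrays were left out was -0.27 to 0.02 for Cdx1, -0.82 to -0.25 for Hnf4g and -0.33 to 0.81 for Gata4. When single arrays were left out, the list medians ranged from -0.31 to 0.03 for partner factors, -1.33 to -0.01 for targets of Cdx2, -0.68 to -0.31 for targets of Hnf4a, -0.32 to -0.02 for targets of Gata4 and Gata6 and -0.64 to 0.00 for pan-epithelial markers. A fit with a slide or scan block was not run, because the files used here name none. A mean over probes was not needed, with 1 probe per member. Gata5 has no value where all 6 arrays had to be above background. Dim probes limit Cdx1, Hnf4g and Gata4.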
